A study of Homo sapiens with 5 samples.

Results

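The 10 genes described here encode enzymes that reduce quinones, aldehydes and ketones, or act next to such reductases in the handling of foreign compounds. They are NQO1, AKR1B1, AKR1B10, AKR1C1, AKR1C2, AKR1C3, CBR1, CBR3, EPHX1 and UGDH, 10 of the 20162 protein-coding genes that GENCODE places on GRCh37 (hg19) outside the mitochondrial genome. They were listed by name, for the reactions they catalyse, by a choice made with earlier results of these data known, so their shares below describe this list and are not independent evidence. A ChIP-seq peak was counted for a gene when it overlapped the annotated gene span or the 50 kb on either side of it. Of the peaks in the 4 libraries, 7 Nrf2 peaks in control cells, 22 Nrf2 peaks with iAs, 11 HIF1α peaks in control cells and 12 HIF1α peaks with iAs met this rule.

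The study mapped where the transcription factors Nrf2 and HIF1α sit on the genome of BEAS-2B cells, an immortalized line of human bronchial epithelial cells, and whether inorganic arsenic (iAs) alters this. All cells were starved of serum overnight, and were then left without iAs (control) or treated with 1 μM iAs for 6 h. Chromatin from control and iAs-treated cells was precipitated with an antibody against Nrf2 or one against HIF1α, which gave 1 library for each factor and condition, so that no value below has a replicate check and no difference was tested. No expression was measured here, so the cells could not be checked against markers of their type, and a peak beside a gene says nothing about its transcript.

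Whole lists held 3204 and 7743 Nrf2 peaks and 6008 and 12826 HIF1α peaks, without and with iAs. Each list holds only where a peak begins and where it stops, without height or score. Per the study's methods, usable tags were down-sampled to the smallest sample of a group, but the groups and the resulting depths are not given in the sources used here. Peaks were therefore compared by presence, position and width, and both lists were longer with iAs.

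Nrf2 is a transcription factor that is kept low by KEAP1-directed degradation until electrophiles or oxidants modify KEAP1. It then pairs with small MAF proteins on antioxidant response elements (ARE), whose core reads TGACNNNGC, and many genes for drug-metabolizing and reducing enzymes carry such elements. HIF1α is degraded in oxygenated cells, and when stabilized it pairs with ARNT on the hypoxia response element, whose core is ACGTG or GCGTG. AP-1 binds the related letters TGACTCA and TGAGTCA. Both are forms of TGANTCA, the pattern searched here, which also admits TGAATCA and TGATTCA. The letters TGACTCAGC are one form of the ARE core and hold TGANTCA as well, so counts of these motifs overlap.

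Genomic sequence (hg19) is shown first for the ARE cores under Nrf2 peaks nearest to the start of one of these genes. All but that of AKR1B1 lay under Nrf2 peaks called in both conditions. Other ARE cores in the EPHX1 window are not printed. They lay 46383 and 46176 bp upstream, in a peak of both conditions nearest to SRP9, and 72041 bp downstream, in an iAs peak at TMEM63A. Capitals mark the ARE core TGACNNNGC, and each run is written 5′ to 3′ on the strand named.
NQO1, chr16:69760902-69760926, minus strand: agtcacagTGACTCAGCagaatctg
EPHX1, chr1:226005539-226005563, minus strand: gccggccaTGACTCAGCacttgcca
AKR1C3, chr10:5114092-5114116, minus strand: atgcaagaTGACTCAGCattttaaa
CBR1, chr21:37441792-37441816, minus strand: aaagctacTGACTTAGCcagatttt
CBR1, chr21:37442155-37442179, minus strand: agctagccTGACTTTGCagaacccg
AKR1B1, chr7:134133589-134133613, minus strand: attcagcaTGACACAGCacatctgg

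The NQO1 core lay 451 bp upstream of the start of transcription (TSS), the EPHX1 core 7725 bp downstream of its TSS in intron 1, and the AKR1C3 core 22502 bp upstream of the TSS of the canonical transcript. Both CBR1 cores were upstream, at 518 and 155 bp from the TSS. The AKR1B1 core was in intron 5, 10251 bp downstream, under a peak that was called only with iAs. Motifs were searched on both strands within 100 bp of each peak centre, and again over whole intervals. Near the centre, the letters TGACTCAGC stood in 1 of the 7 Nrf2 peaks of control cells near these genes, that of AKR1C3, against 23.8% of the whole control list, and with iAs in 2 of 22 peaks, against 15.6% of 7743. The broader core TGACNNNGC was near the centre of 3 of 7 and 5 of 22 peaks, against 42.4% and 31.6% of all peaks. Over whole intervals, TGACTCAGC was in 3 of 7 control peaks, those of NQO1, EPHX1 and AKR1C3, against 29.0%, so that the order of the shares turned with the search. With iAs it was in 3 of 22 against 21.7%, and TGACNNNGC was in 5 of 7 and 7 of 22 against 51.3% and 44.2%. The control peaks near these genes were wider than the list as a whole, with medians of 532 and 309 bp, and with iAs the medians were 434 and 333 bp.

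A second set shows copies of one stretch of sequence in neighbouring paralogs, each under a separate Nrf2 peak. Capitals mark TGANTCA.
AKR1C1, chr10:4983878-4983900, plus strand: agtcactgTGAGTCAgcaagatt
AKR1C2, chr10:5062608-5062630, minus strand: agtcactgTGAGTCAgcaagatt
AKR1B10, chr7:134212116-134212138, plus strand: gaatttgtTGACTCAtcctgaac
AKR1B15, chr7:134247823-134247845, plus strand: gaatttgtTGACTCAtcgtgaac

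The AKR1C1 and AKR1C2 sites were identical over 23 bases, and the 601 bases around them were 89.3% identical over 608 alignment columns. The AKR1B10 and AKR1B15 sites differed by 1 substitution, C18G, counted from 1 at the 5′ end of the printed run with the AKR1B10 base first, and the 601 bases around them were 72.5% identical over 621 columns. Near the centre, TGANTCA was found in 2 of 7 Nrf2 peaks of control cells and in 9 of 22 with iAs, against 54.1% and 44.7% of all Nrf2 peaks. Over whole intervals it was in 4 of 7 and 12 of 22, against 65.2% and 59.5%.

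A last set lies under HIF1α peaks of the carbonyl reductase genes and UGDH, with the core ACGTG or GCGTG in capitals.
CBR1, chr21:37442521-37442541, plus strand: ggcgcgggACGTGacgcgggg
CBR3, chr21:37507598-37507618, plus strand: cgcgcgggACGTGgcgcgggg
UGDH, chr4:39529496-39529516, plus strand: caaaggccGCGTGcgctccgc

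The CBR1 and CBR3 sites lay in the coding part of exon 1, 209 and 231 bp downstream of the TSS, and the UGDH site lay 447 bp upstream of its TSS. The core ACGTG was near the centre of 4 of 11 HIF1α peaks of control cells and 3 of 12 with iAs, against 23.6% and 19.6% of all HIF1α peaks, and GCGTG near that of 5 of 11 and 6 of 12, against 33.3% and 41.3%. Over whole intervals ACGTG was in 5 of 11 and 6 of 12, against 31.7% and 33.9%, and GCGTG in 5 of 11 and 9 of 12, against 43.1% and 61.1%. These cores were not confined to HIF1α peaks, and the printed CBR1 and CBR3 sites also lay under Nrf2 peaks with iAs. Over whole intervals, 8 of 22 Nrf2 peaks with iAs near these genes held ACGTG and 12 held GCGTG. The shares of all Nrf2 peaks with iAs were 22.8% and 29.2%. A match of these short letters is a description of the sequence and does not show which protein was bound.

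Nrf2 peaks lay near 5 of the 10 genes in control cells and near 9 with iAs. By the same rule, 20.0% and 35.0% of all protein-coding genes had a Nrf2 peak. A Nrf2 peak with iAs that overlapped no control peak lay near 9 of the 10 genes, against 25.4% of all genes. Among all genes, 7058 had a Nrf2 peak with iAs, and 5119 had one that overlapped no control peak. HIF1α peaks lay near 6 of the 10 genes in control cells and near 6 with iAs, against 45.5% and 68.6% of all genes. The 6 were not the same, since AKR1B10 had a HIF1α peak in control cells alone and AKR1B1 with iAs alone. The share of these genes was above that of all genes in control cells and below it with iAs. A HIF1α peak called only with iAs was found near 6 genes, against 59.6% of all genes. Nrf2 and HIF1α peaks that overlapped each other in iAs-treated cells lay near 5 genes, NQO1, AKR1B1, CBR1, CBR3 and EPHX1, against 12.7% of all genes. This count fell to 3 with the wider 50% of each list, to 2 with a reciprocal overlap of 50% and to 1 with equal numbers of the widest control and iAs peaks. The share of all genes was not computed at these settings. The windows are not independent, since those of the AKR1C genes, of AKR1B1 with AKR1B10 and of CBR1 with CBR3 overlap. The 10 genes make 6 loci, and 5 of these had a Nrf2 peak with iAs.

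Within 1 kb of the TSS, a distance added after the data were seen, Nrf2 peaks were called at 2 genes in control cells, NQO1 and CBR1, against 2.32% of all genes. With iAs there were 5, NQO1, AKR1B1, AKR1B10, CBR1 and CBR3, against 5.17%. HIF1α peaks were called this close at 3 genes in control cells, NQO1, CBR3 and UGDH, against 16.7% of all genes. With iAs there were 6, NQO1, AKR1B1, CBR1, CBR3, EPHX1 and UGDH, against 42.6%. A Nrf2 peak without a control counterpart lay this close at 3 genes, against 3.24% of all genes, and a HIF1α peak of that kind at 5, against 31.1%. Overlapping peaks of both factors lay there at 4 genes, NQO1, AKR1B1, CBR1 and CBR3, against 3.73% of all genes.

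**Figure D1:**
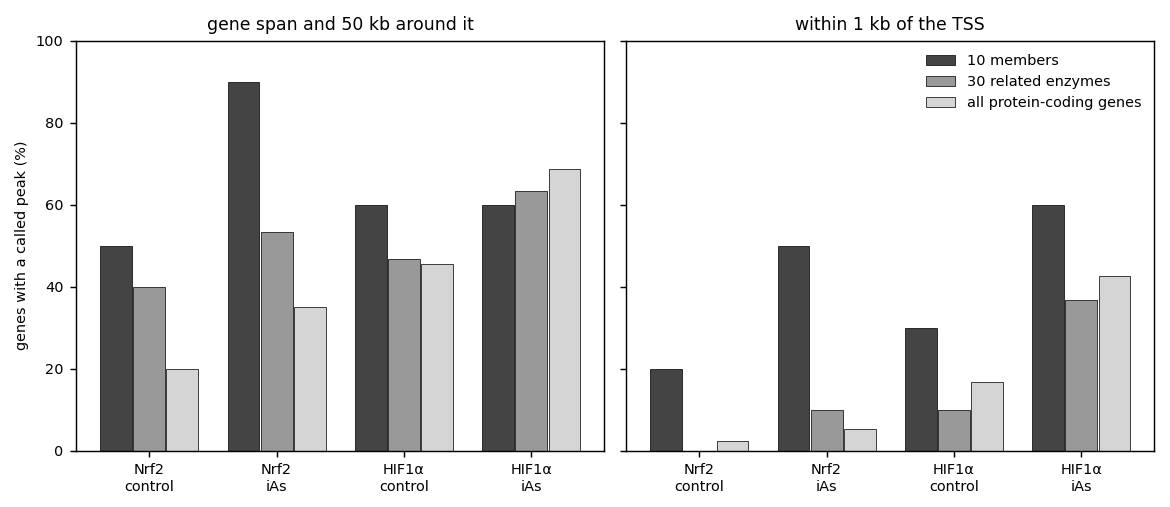
Share of genes (y axis, percent) with a called peak in each of the 4 libraries (x axis), for the 10 genes described here, 30 related enzymes and all protein-coding genes. The left panel counts peaks in the gene span and 50 kb around it, and the right panel peaks within 1 kb of the TSS. The bar of the 10 genes is the highest of its group except for HIF1α with iAs in the left panel, where 60% stands below 68.6% of all genes.

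**Figure D2:**
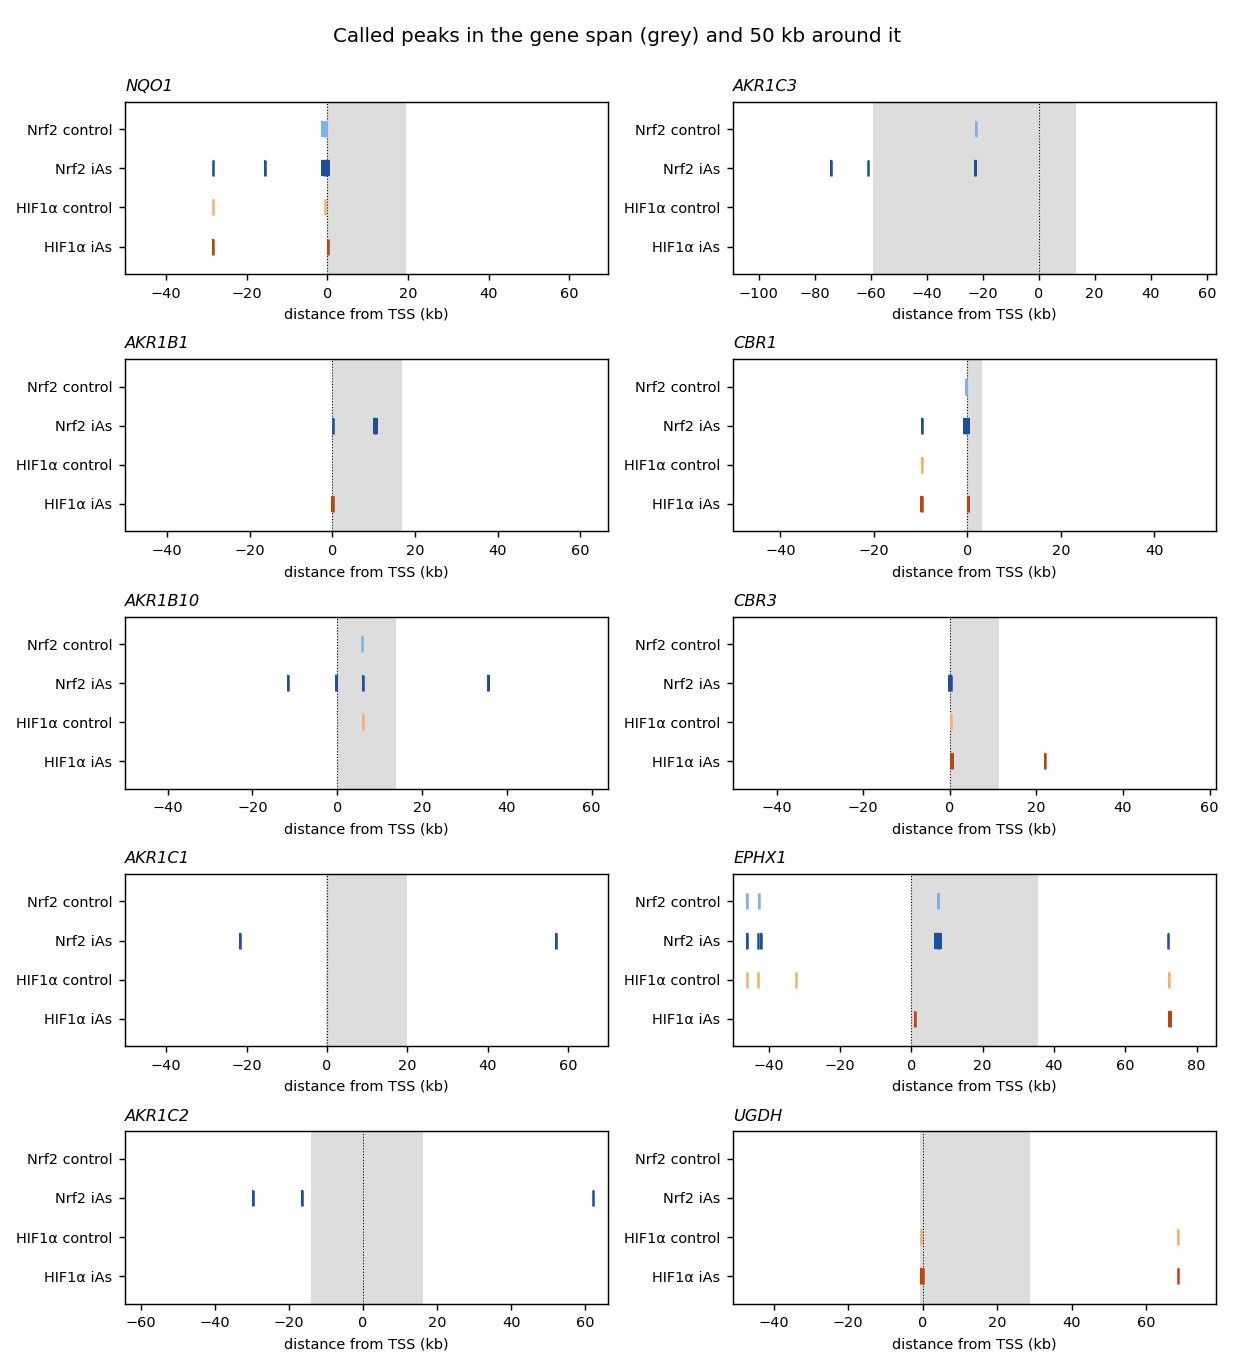
Called peaks in the window of each gene. The x axis is the distance from the TSS in kb, in the direction of transcription, and each row is 1 library. Grey marks the annotated gene span, and each coloured mark is 1 peak, drawn no narrower than the line. The AKR1C genes show Nrf2 peaks and no HIF1α peak, and UGDH shows HIF1α peaks and no Nrf2 peak.

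NQO1 encodes NAD(P)H quinone dehydrogenase, which reduces quinones directly to hydroquinones and is a standard Nrf2 target. Its Nrf2 peak covered the TSS in both conditions. It spanned chr16:69760213-69761999 in control cells, 1787 bp, which was the 4th widest of 3204 peaks. With iAs it spanned chr16:69759701-69762155, 2455 bp, the 16th widest of 7743. It grew in both directions, by a ratio of 1.37. The core printed above lay 192 bp from the centre of the control peak and 14 bp from that of the iAs peak.

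HIF1α also had a peak at the start of NQO1 in each condition, but at separate places. In control cells it was 224 bp wide (chr16:69760852-69761075), centred 500 bp upstream, and it held the printed TGACTCAGC and neither ACGTG nor GCGTG. With iAs this peak was not called, and a peak of 196 bp was called over the TSS (chr16:69760310-69760505), centred 56 bp downstream in the 5'-UTR of exon 1, with 1 GCGTG. It was among the narrowest of its list, the 11891st widest of 12826. Both HIF1α peaks lay within the Nrf2 peak of the same condition.

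The other peaks in the NQO1 window were nearer to another gene. A site 28.3 kb upstream of NQO1, at the start of NOB1, had a HIF1α peak of 239 bp without iAs and 507 bp with it, and a Nrf2 peak of 232 bp with iAs. A further Nrf2 peak of 278 bp, 15.5 kb upstream of NQO1, was called with iAs alone.

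CBR1 encodes carbonyl reductase 1, a short-chain dehydrogenase that reduces quinones, prostaglandins and anthracyclines. Its Nrf2 peak widened from 711 bp in control cells (chr21:37441751-37442461) to 1339 bp with iAs (chr21:37441438-37442776), a ratio of 1.88. Both covered the TSS, with centres 216 and 215 bp upstream. By width they were the 217th of 3204 and the 209th of 7743 peaks. HIF1α had no peak there in control cells and one of 598 bp with iAs (chr21:37442213-37442810), centred 189 bp downstream in exon 1. It covered the TSS and held 4 ACGTG and 3 GCGTG. The ACGTG printed above lay 20 bp from its centre, and another ACGTG, not printed, lay 1 bp from it.

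At the start of the neighbouring gene SETD4, the HIF1α peak measured 418 bp without iAs and 686 bp with it. Nrf2 had a peak of 420 bp there with iAs only, centred 9.64 kb upstream of the CBR1 TSS.

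CBR3 encodes carbonyl reductase 3, a close paralog of CBR1 on the same chromosome. No Nrf2 peak lay in its window in control cells, where the nearest was 64.9 kb from the TSS. With iAs, 2 Nrf2 peaks flanked the TSS, one of 326 bp centred 187 bp upstream and one of 350 bp centred 260 bp downstream, in exon 1. HIF1α was already present in control cells, with a peak of 236 bp (chr21:37507457-37507692) centred 197 bp downstream of the TSS. With iAs this peak was 1005 bp wide (chr21:37507389-37508393), a ratio of 4.26, the largest among the shared peaks of these genes. A second HIF1α peak of 523 bp with iAs lay 22.1 kb downstream of the CBR3 TSS and nearest to DOP1B. At CBR1 the Nrf2 peak was present before iAs and the HIF1α peak was not, whereas at CBR3 the HIF1α peak was present and the Nrf2 peaks were not.

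**Figure D3:**
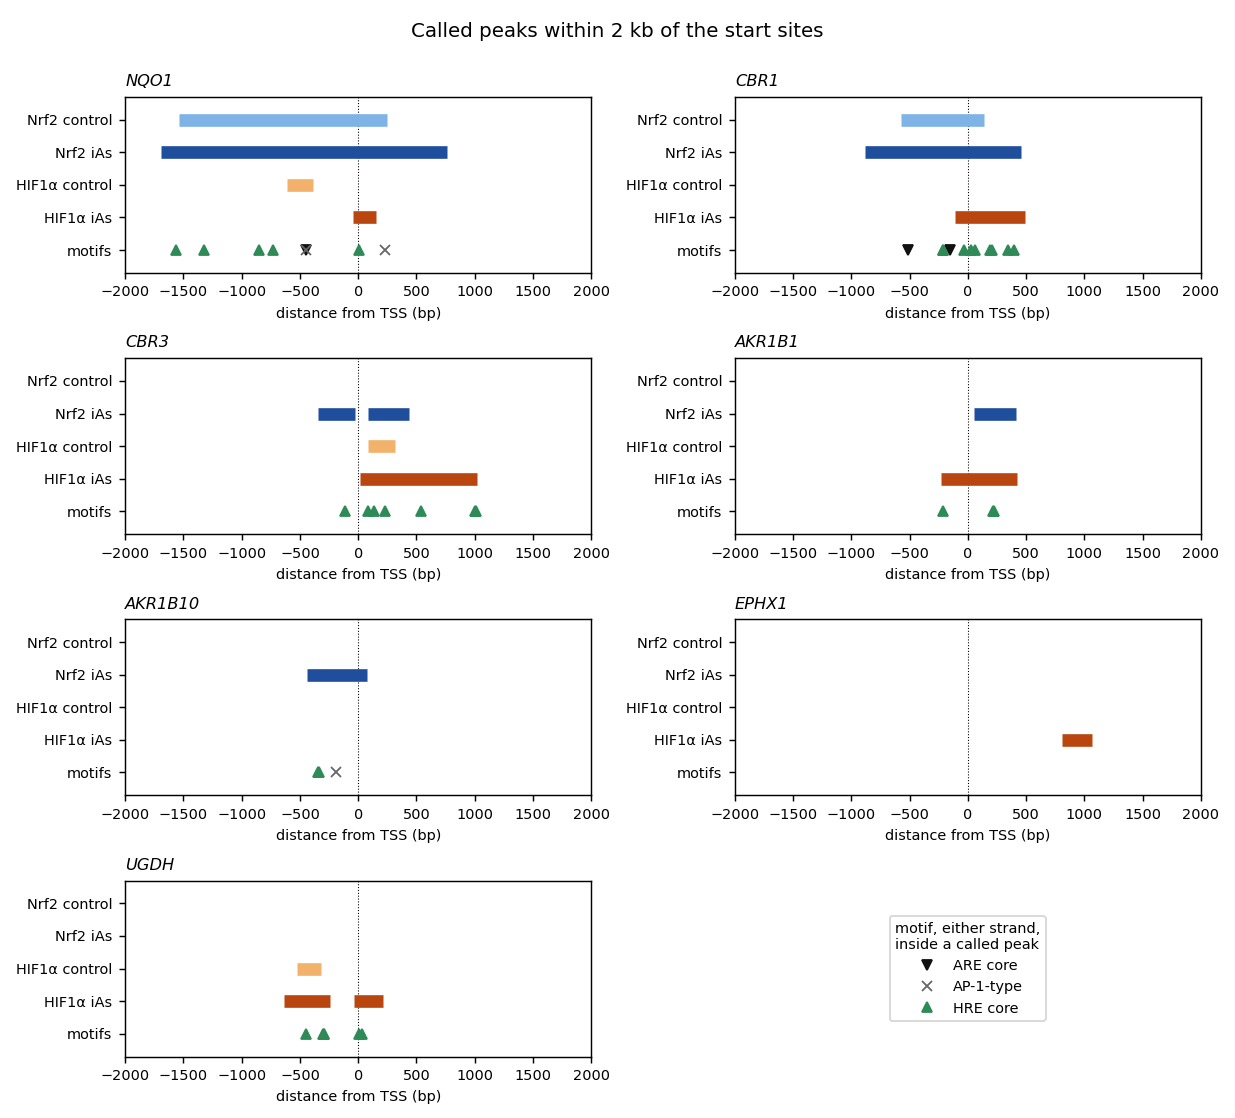
Called peaks within 2 kb of the TSS of the 7 genes that had one there, by library (rows), with the distance from the TSS in bp on the x axis. Symbols mark the ARE core, the AP-1-type letters (TGANTCA) and the core of the hypoxia response element (HRE core) inside called peaks, on either strand. At NQO1 the HIF1α peak of control cells covers the ARE core and the HIF1α peak with iAs covers the TSS, and at CBR3 HIF1α widens from 236 to 1005 bp.

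The AKR1B genes encode aldose reductase (AKR1B1), which reduces glucose and lipid aldehydes in the polyol and detoxification pathways, and AKR1B10, which reduces retinal and other aldehydes. AKR1B1 had no peak of either factor in control cells. With iAs, Nrf2 had a peak of 1194 bp in intron 5 (chr7:134132879-134134072), centred 10.4 kb downstream of the TSS, and one of 366 bp in intron 1 (chr7:134143438-134143803), centred 232 bp downstream. HIF1α had a peak of 654 bp with iAs (chr7:134143434-134144087), which covered the TSS and the whole Nrf2 peak of intron 1. The intron 5 peak had no HIF1α peak over it and was the widest Nrf2 peak among those that lacked a control peak near the 10 genes.

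AKR1B10 had 1 Nrf2 peak in control cells, of 199 bp in intron 4 (chr7:134218163-134218361), and 4 with iAs. The control peak was still called with iAs, at 234 bp. The new peaks were one of 436 bp 11.6 kb upstream, one of 515 bp that covered the TSS (chr7:134211882-134212396), and one of 557 bp at 35.6 kb, within AKR1B15, the next gene. The peak over the TSS of AKR1B10 and that within AKR1B15 held the near-identical sites printed above. HIF1α had a single peak of 240 bp here, in control cells, at the same place in intron 4, and none with iAs, where the nearest was 68.2 kb from the TSS.

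The window ended just short of a wide Nrf2 peak whose nearest TSS, 44.8 kb away with iAs, was that of AKR1B15. This peak spanned 1355 bp without iAs and 2051 bp with it (chr7:134277666-134279716), and began 51.8 and 51.5 kb beyond the end of AKR1B10, so it was not counted. A HIF1α peak of control cells, 454 bp wide, lay at the same place, 52.6 kb away.

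The AKR1C genes encode hydroxysteroid dehydrogenases that also reduce lipid aldehydes and quinones, and AKR1C3 makes testosterone and prostaglandin F. No HIF1α peak was called near any of the 3 genes in either condition. The nearest HIF1α peak with iAs was 702 kb from the TSS of AKR1C1, 662 kb from that of AKR1C2 and 571 kb from that of AKR1C3. For Nrf2, control cells had 1 peak in the whole locus, of 532 bp (chr10:5113860-5114391), centred 22.5 kb upstream of the canonical AKR1C3 TSS and inside the span of longer AKR1C3 transcripts. With iAs it was 1103 bp wide (chr10:5113491-5114593), a ratio of 2.07.

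The other 3 Nrf2 peaks of the locus were called only with iAs. One of 280 bp lay 21.6 kb upstream of the canonical AKR1C1 TSS (chr10:4983827-4984106). The second, of 598 bp (chr10:5062252-5062849), and the third, of 352 bp (chr10:5075630-5075981), lay 16.5 and 29.8 kb upstream of the canonical AKR1C2 TSS. The annotated AKR1C2 span runs to position 5060223 and that of AKR1C3 starts at 5077546. The second peak was thus just beyond the AKR1C2 span, and the third just upstream of the AKR1C3 span. The first and second peaks held the identical site printed above. No peak of either factor came within 1 kb of a canonical AKR1C TSS.

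AKR1C1 and AKR1C2 are nearly identical copies, and reads from such copies can be placed on either or discarded. Of the 50-base words within 1 kb of the TSS, 48.7% recurred elsewhere in the genome for each of AKR1C1 and AKR1C2, whereas none did for AKR1C3. Of the words under the AKR1C1 and AKR1C2 peaks with the shared site, 6.06% and 16.9% recurred. The part of this in the peaks that were or were not called was not tested.

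EPHX1 encodes microsomal epoxide hydrolase, which opens epoxides to diols. It had the most Nrf2 peaks of the 10 genes, 3 in control cells and 5 with iAs. The widest lay in intron 1. It spanned 930 bp in control cells (chr1:226004959-226005888), the 79th of 3204, and grew to 2327 bp with iAs (chr1:226004071-226006397), the 20th of 7743. The ratio of 2.50 was the largest among the shared Nrf2 peaks of these genes, and no HIF1α peak lay over it in either condition.

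The remaining Nrf2 peaks of EPHX1 lay far from its start. Control cells had one of 430 bp 46.2 kb upstream and one of 303 bp 42.9 kb upstream, which were 574 and 431 bp wide with iAs. Another of 541 bp, 42.3 kb upstream, was called only with iAs. These were nearer to the TSS of SRP9 than to that of EPHX1. The fifth, of 234 bp, lay at the start of TMEM63A and was called only with iAs.

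HIF1α had 4 peaks around EPHX1 in control cells and 2 with iAs. Those 46.1 and 42.9 kb upstream, of 235 and 272 bp, lay on the Nrf2 peaks and were not called with iAs, and the same held for one of 231 bp at the start of SRP9, where Nrf2 had no peak. The peak at TMEM63A widened from 286 to 1140 bp with iAs. A new peak of 258 bp lay 935 bp downstream of the EPHX1 TSS with iAs.

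UGDH encodes UDP-glucose dehydrogenase, which makes the UDP-glucuronic acid that glucuronosyltransferases use. It was the only one of the 10 genes without a Nrf2 peak in its window, and the nearest one with iAs was 94.2 kb from its TSS. HIF1α had a peak of 214 bp centred 422 bp upstream in control cells (chr4:39529375-39529588), which was 391 bp wide with iAs (chr4:39529303-39529693) and held the printed GCGTG in both. A second peak of 252 bp, over the TSS, was called only with iAs (chr4:39528844-39529095). The remaining peak, nearest to RPL9, measured 295 bp without iAs and 330 bp with it.

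Of the protein-coding genes, 2598 (12.9%) had peaks in all 4 libraries within 50 kb, as NQO1, CBR1 and EPHX1 did. AKR1B10, with Nrf2 in both conditions and HIF1α in control cells alone, shared its pattern with the fewest, 201 genes in all (0.997%). The pattern of AKR1C1 and AKR1C2, a Nrf2 peak with iAs and no other, was that of 397 genes (1.97%), and that of AKR1C3 was shown by 378 genes (1.87%). For AKR1B1 the count was 806 (4.0%), for CBR3 1813 (8.99%) and for UGDH 4055 (20.1%).

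All 7 Nrf2 peaks of control cells near these genes were called again with iAs, and all 7 were wider. Over the whole list, 5.37% of 3204 control peaks had no counterpart with iAs, and 92.2% of the 3032 shared peaks were wider. The ratio of widths ran from 1.18 at AKR1B10 to 2.50 at EPHX1, with a median of 1.42, against 1.67 over all shared Nrf2 peaks. Among the 22 Nrf2 peaks with iAs, 15 had no control counterpart, against 62.0% of the whole Nrf2 list.

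**Figure D4:**
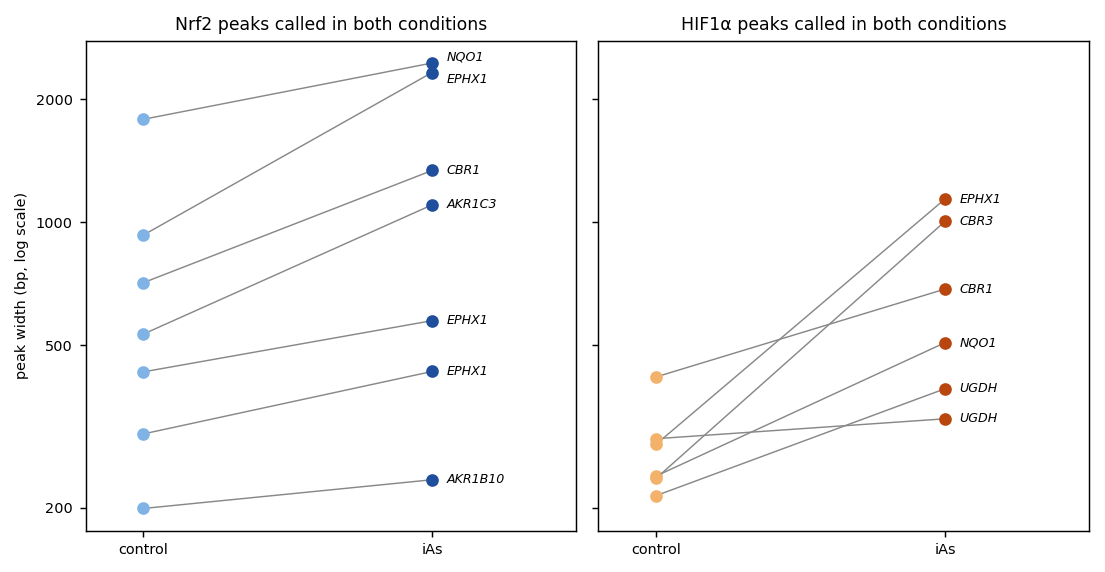
Width in bp (y axis, log scale) of each peak that was called in both conditions near the 10 genes, in control and in iAs-treated cells. Each line joins 1 control peak with the iAs peak that overlaps it, and is labelled with the gene whose window holds it. All 7 Nrf2 peaks and all 6 HIF1α peaks are wider with iAs. Several are nearest to the TSS of another gene. These are the HIF1α peaks labelled NQO1 (NOB1), CBR1 (SETD4) and EPHX1 (TMEM63A), and that of UGDH with 330 bp in iAs (RPL9). The Nrf2 peaks of EPHX1 with 574 and 431 bp in iAs are nearest to SRP9.

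Of the 11 HIF1α peaks of control cells near these genes, 6 were called again with iAs and 5 were not. The 45.5% not called again was close to the 46.3% of 6008 over the whole list. Only 4 of the 11 peaks were nearest to the TSS of one of these genes. Among the 6 that stayed, those at NOB1, SETD4, TMEM63A and RPL9 were nearest to these other genes. The 6 that stayed were all wider, by ratios from 1.12 to 4.26 with a median of 1.97, against 77.4% wider and a median of 1.48 over all 3226 shared HIF1α peaks. Among the 12 HIF1α peaks with iAs, 6 had no control counterpart, against 75.2% of the whole list.

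The HIF1α peaks not called again were those at NQO1, in intron 4 of AKR1B10, and the 3 upstream of EPHX1, nearest to SRP9. All 4 HIF1α control peaks that overlapped a Nrf2 control peak were among them, and 1 of the 7 others. Over the whole list, 62.7% of 892 HIF1α control peaks on a Nrf2 control peak were not called with iAs, and 43.5% of the 5116 others. Over whole intervals, the letters TGANTCA stood in 3 of the 5 peaks not called again, as TGAATCA at AKR1B10, and in 0 of the 6 that were. ACGTG or GCGTG stood in 1 of the 5 and in 6 of the 6. Over all HIF1α control peaks, TGANTCA was in 36.3% of those not called again and 9.21% of those called again, and ACGTG or GCGTG in 42.2% and 72.5%. With so few peaks, these counts are a description and were not tested.

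Of the Nrf2 peaks near these genes with iAs, 5 of the 15 without a control peak overlapped a HIF1α peak with iAs, and 2 of the 7 with one. Over the whole list these shares were 14.1% of 4804 and 15.7% of 2939. The 5 lay at the starts of NOB1, SETD4 and TMEM63A, in intron 1 of AKR1B1 and in exon 1 of CBR3. The 2 were the peaks over the starts of NQO1 and CBR1.

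Related enzymes were counted in the same way from a list of 30 genes, for reductases, epoxide hydrolases, enzymes of UDP-sugar metabolism and an aldehyde dehydrogenase. Nrf2 peaks lay within 50 kb of 12 of the 30 (40%) in control cells and of 16 (53.3%) with iAs, against 20.0% and 35.0% of all genes. HIF1α peaks lay near 14 (46.7%) and 19 (63.3%), against 45.5% and 68.6% of all genes. Within 1 kb of the TSS the Nrf2 counts were 0 and 3 (10%), against 2.32% and 5.17% of all genes. For HIF1α they were 3 (10%) and 11 (36.7%), below the 16.7% and 42.6% of all genes. The widest Nrf2 peaks with iAs were in the windows of ALDH3A1, an aldehyde dehydrogenase (2165 bp, 4.75 kb upstream), and UGT1A6, a glucuronosyltransferase (2109 bp, 7.0 kb downstream of its TSS). Next came AKR1B15 (2051 bp, 44.8 kb downstream of its TSS) and PTGR1, prostaglandin reductase 1 (1306 bp, 2.28 kb upstream). The widest HIF1α peaks with iAs in the windows of listed genes were nearest to the TSS of other genes, with 1271 bp near DCXR, 1196 bp near NQO2, 792 bp near AKR1A1 and 729 bp near PTGR1.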

How the data were processed

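Intervals were taken from the deposited peak lists of the 4 ChIP libraries as base positions on hg19. Per the labels and the study's methods, the authors aligned reads (the submitters' processing notes name BWA and MACS2 2.1.0), down-sampled tags within a group and called peaks with MACS or SICER. Which caller made each list, and the depth of each library, are not given in the sources used here. The input library was not analysed here. The labels name antibodies from Santa Cruz (Nrf2) and Abcam (HIF1α), and the methods another supplier. Starts were converted to 1-based positions.

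Gene spans, canonical TSSs and exons came from GENCODE release 44 on GRCh37. Negative distances are upstream. An overlap of 1 bp or more made peaks shared. Motifs were searched on both strands of hg19 within 100 bp of each centre, and also in whole intervals. Repeated sequence was measured with words of 50 bases. Loci are merged windows. All 10 genes are named, and of the related enzymes the 4 with the widest peak for each factor with iAs. Genes and lists were chosen with earlier results of these data known. Gene assignment was tested on simulated data. Python 3.11.15, NumPy 2.4.6, Biopython 1.88 and matplotlib 3.10.9 were used.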

Additional observations from a re-analysis of the deposited data

Results flagged for a closer look

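At AKR1B10 and EPHX1 the number of peaks changed in opposite directions for the 2 factors. AKR1B10 had 3 more Nrf2 peaks with iAs than in control cells, and its HIF1α count changed by -1. EPHX1 had 2 more Nrf2 peaks with iAs, and its HIF1α count changed by -2. The Nrf2 peaks of EPHX1 called only with iAs and the HIF1α peaks not called again were nearest to SRP9 or TMEM63A, 32.4 to 72.1 kb from the EPHX1 TSS. Within 1 kb of the EPHX1 TSS there was 1 HIF1α peak with iAs and 0 in control cells, and 0 Nrf2 peaks in either condition. With 1 library per factor and condition the difference between the factors was not tested.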

How the results depend on the processing

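Of 62 recomputed gene counts, 51 stayed within 1.5 times the reported count. Shares of all genes were computed only for 50 kb around the gene and 1 kb from the TSS, both with full lists. Counts at the other settings have no such share beside them and describe these genes alone. At 2 kb around the gene, a Nrf2 peak only with iAs was left near 4 genes, and at 100 kb a Nrf2 control peak lay near 9. With the wider 50% of each list, 3 genes had a HIF1α control peak and 3 had overlapping Nrf2 and HIF1α peaks with iAs. With equal numbers of the widest control and iAs peaks, 3 genes had a HIF1α peak only with iAs, and 1 gene had overlapping peaks of both factors. A reciprocal overlap of 50% left 2 genes with overlapping peaks of both factors, and then 2 Nrf2 and 9 HIF1α control peaks had no iAs counterpart. Within 1 kb of the TSS, chosen after seeing the data, the counts were 2 (Nrf2 control), 5 (Nrf2 iAs), 3 (HIF1α control) and 3 (Nrf2 only with iAs). Of 20 motif counts, 7 differed by over 1.5 times between whole intervals and windows of 100 bp on either side of the centre. For TGACTCAGC these were 3 and 1 of 7 Nrf2 control peaks, against 29.0% and 23.8% of the whole list. No paired analysis was possible because each factor and condition had 1 library. The authors down-sampled tags within a group. The resulting depths are not given in the sources used here, and the lists with iAs are longer, which limits comparisons of presence and width between conditions.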
